A study of Homo sapiens with 27 samples.

Results

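The comparison described here sets benzo[k]fluoranthene against chrysene in HepG2 cells, on 6 of the 27 arrays of a series on polycyclic aromatic hydrocarbons. All arrays of the labels BF (benzo[k]fluoranthene, 3 arrays) and CHR (chrysene, 3 arrays) were taken; the pair was proposed with earlier results of these data known, among them how alike the DMSO channels were. HepG2 is an established human hepatocellular carcinoma line, and in both groups the cells were exposed for 48 h, with RNA of compound-treated cells labelled with Cy5 and RNA of DMSO-treated cells labelled with Cy3 on the same array. The labels give no dose for either compound, so the compounds are compared as applied, and they do not say whether the 3 arrays of a compound held separate cultures or whether arrays of different compounds shared a DMSO RNA. The p-values below therefore measure the spread between arrays, which may be technical. The dyes were never swapped, so a dye bias of a probe is part of each ratio to DMSO and cancels in the difference between compounds only as far as it is the same on all arrays. Of 17272 genes named on the array, 15150 had signal above background with at least 1 of the compounds, on 2 or more of its 3 arrays, and were tested.

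Polycyclic aromatic hydrocarbons enter the cell and bind the aryl hydrocarbon receptor (AHR), which then pairs with ARNT and switches on genes of xenobiotic metabolism, above all CYP1A1, CYP1A2 and CYP1B1. The enzymes so made turn some hydrocarbons into diol epoxides, which bind DNA and can activate p53 and its targets. Chrysene is built from fused benzene rings alone, while the larger benzo[k]fluoranthene also holds a cyclopentane-type ring. In liver-derived cells these compounds are known for AHR activation, and the cell's own programme of secreted proteins, lipid synthesis and division is read here beside it.

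Every value against DMSO is a log2 ratio of background-corrected, loess-normalised Cy5 over Cy3 signal. A difference is the mean log2 ratio with benzo[k]fluoranthene minus the mean with chrysene (n = 3 arrays each), tested with limma on the 6 arrays, and a gene is called when its Benjamini-Hochberg adjusted p is below 0.05 and the difference is at least 1.5-fold. Because a ratio holds a compound and a DMSO signal, the difference in each channel is given where it bears on a gene: the ratio difference equals the Cy5-channel difference minus the DMSO-channel difference. A spot counted as saturated when at least 10% of its pixels were at the scanner's limit.

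The arrays differed in quality between the compounds. The median Cy5 signal was 341 to 421 intensity units on the benzo[k]fluoranthene arrays and 696 to 944 on the chrysene arrays, and the median Cy3 signal 551 to 643 against 961 to 1316. Between 59.5% and 75.9% of spots per array were above background in Cy5. Log2 ratios of the 3 benzo[k]fluoranthene arrays correlated across probes at 0.985 to 0.988, chrysene arrays 2 and 3 at 0.982, and chrysene array 1 with the other two at 0.927 and 0.922. Chrysene array 1 thus stands apart from its replicates, and, over all genes and the lists, only the receptor complex below changed a count by over 1.5 times without it. The DMSO channels were not alike throughout: their rank correlation was 0.947 to 0.962 between a benzo[k]fluoranthene and a chrysene array and 0.981 to 0.994 within a compound. Of the 15150 genes, 4071 (26.9%) were called between the DMSO channels alone. Whether DMSO cultures, labelling or scanning made this gap cannot be told apart here. HepG2's hepatocyte markers ALB, AFP, APOA1, TTR, SERPINA1 and GPC3 were above background in the DMSO channel of all 6 arrays.

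Of the 15150 genes, 1883 were called higher with benzo[k]fluoranthene than with chrysene (12.4%) and 2916 lower (19.2%), 4799 in all (31.7%). The median difference over all tested genes was -0.05 with quartiles of -0.44 and 0.29. Of the called genes, 261 lay below -2 and 105 above 2. The split depended on the scaling, with 2969 higher and 2510 lower after each array was centred on its median, and 2239 higher and 2168 lower after quantile scaling. List counts under these scalings below are to be read beside these counts of all 15150 genes. Read in the Cy5 channel alone, 2821 genes were called higher (18.6%) and 3094 lower (20.4%), 39% of all genes. Among the 4799 genes called on ratios, 4238 had a Cy5 difference of the same sign, 547 had one of the opposite sign, and 2923 were also called the same way in Cy5. For 799 of them (16.6% of those called and 5.27% of genes tested) the DMSO channels differed 2-fold or more, against 10.9% of all genes.

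Against DMSO, the call counts were as follows. With benzo[k]fluoranthene 2684 genes were called higher than DMSO (17.7%) and 3474 lower (22.9%), 6158 in all (40.6%), and with chrysene 1978 higher (13.1%) and 2092 lower (13.8%), 4070 in all (26.9%). Benzo[k]fluoranthene raised and chrysene lowered 54 genes whose difference was called, and 102 went the other way. Both compounds' counts rest on their own DMSO channels, and the difference between the counts was not tested.

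**Figure D1:**
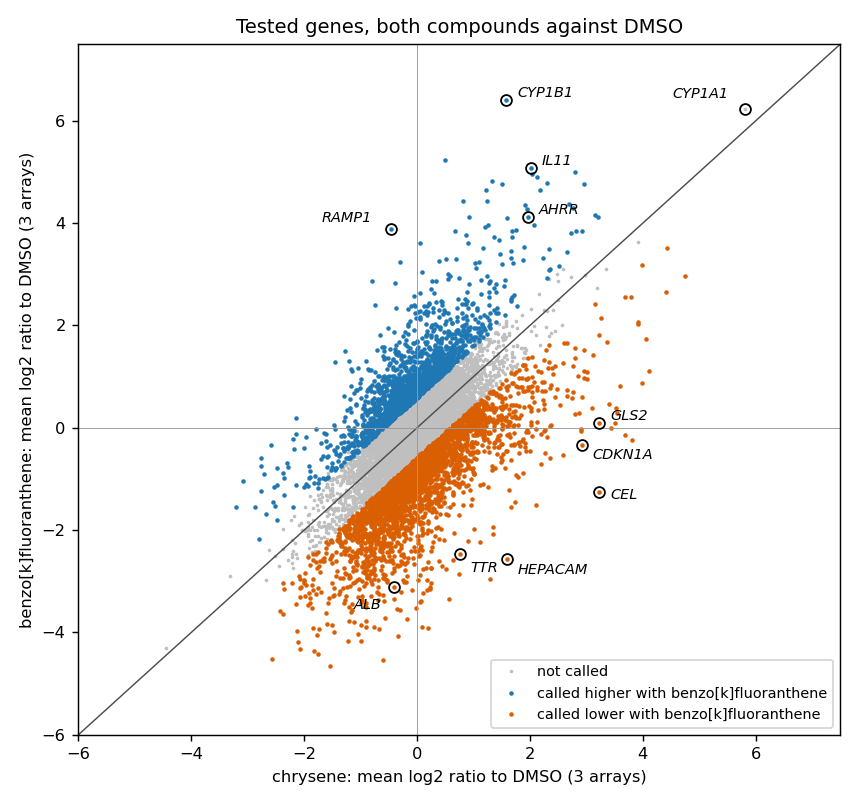
Each point is 1 of 15150 tested genes, placed by its mean log2 ratio to DMSO with chrysene (horizontal) and with benzo[k]fluoranthene (vertical), over 3 arrays each; the diagonal marks equal ratios. Blue points (1883) were called higher and orange points (2916) lower with benzo[k]fluoranthene, and CYP1B1 stands highest above the diagonal while CEL lies farthest below it.

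CYP1B1, AHRR, UGT1A6, SLC7A5, TIPARP and SERPINB2 were the AHR targets called higher with benzo[k]fluoranthene than with chrysene, and CYP1A2 and NEDD9 those called lower. Of 14 tested members, 6 were called higher (12.4% of all genes were) and 2 lower (19.2% of all genes), and their median difference was 0.30 against -0.05 over all genes. The Cy5 channel alone gave 8 higher and 1 lower (18.6% and 20.4% of all genes) with a median of 0.78. Median centring gave 8 and 1 with 0.67, beside 2969 and 2510 of all 15150 genes. Quantile scaling gave 6 and 2 with 0.01, beside 2239 and 2168. CYP1B1, a cytochrome that oxidises hydrocarbons and oestrogens, lies on chromosome 2 (GRCh38, 38067509 to 38076151). Its log2 ratios were 6.36, 6.14 and 6.70 with benzo[k]fluoranthene and 1.43, 1.74 and 1.58 with chrysene. Every benzo[k]fluoranthene array stood far above every chrysene array, and 73.2% of all genes had groups that did not overlap. The difference was 4.82 (SE 0.14, 28.2-fold, adjusted p = 2.32e-07), the highest among the probes that stood for the tested genes, with a Cy5-channel difference of 5.45 and a DMSO-channel difference of 0.64.

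AHRR, the repressor that competes with AHR for ARNT, had log2 ratios of 3.99, 4.22 and 4.12 with benzo[k]fluoranthene and 1.90, 2.01 and 1.96 with chrysene. Both compounds raised it, and the groups did not overlap (nor in 73.2% of all genes). The difference was 2.15 (SE 0.07, 4.45-fold, adjusted p = 3.54e-07). A second AHRR probe gave 2.23. UGT1A6, a glucuronosyltransferase of phenols, had ratios of 4.29, 4.17 and 4.35 against 1.82, 2.04 and 1.95, a difference of 2.33 (SE 0.08, adjusted p = 3.54e-07). It too was raised by both compounds, but the UGT1A genes share their later exons, so signal of its relatives may be included.

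The 250 bases before the start of these 2 genes are shown because they are the only tested AHR targets with a RefSeq promoter (12 of 14 had one) that holds the xenobiotic response element, the site bound by AHR with ARNT, searched as TNGCGTG on both strands. The element is in capitals, 5′ to 3′ along the gene, from RefSeq on GRCh38.p14. AHRR spans chr5:321464-321713 on the plus strand and UGT1A6 chr2:233691452-233691701 on the plus strand.
AHRR: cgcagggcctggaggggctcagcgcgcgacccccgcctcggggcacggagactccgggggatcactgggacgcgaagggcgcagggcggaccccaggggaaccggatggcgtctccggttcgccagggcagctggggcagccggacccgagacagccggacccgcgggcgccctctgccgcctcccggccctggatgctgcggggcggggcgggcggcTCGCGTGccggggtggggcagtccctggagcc
UGT1A6: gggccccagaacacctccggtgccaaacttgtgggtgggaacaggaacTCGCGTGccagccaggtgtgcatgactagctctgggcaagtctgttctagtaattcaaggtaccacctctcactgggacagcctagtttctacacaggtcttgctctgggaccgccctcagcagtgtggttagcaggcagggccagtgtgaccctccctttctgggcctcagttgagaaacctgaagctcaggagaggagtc
The element begins 32 bases before the AHRR start and 202 bases before the UGT1A6 start. It occurs in 2 of the 12 AHR target promoters and in 5.83% of the 12105 promoters of tested genes, and a match is a description of the letters only.

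SLC7A5, the large neutral amino acid transporter, had ratios of 1.95, 1.98 and 2.01 with benzo[k]fluoranthene and 0.00, -0.22 and -0.26 with chrysene, a difference of 2.14 (SE 0.08, adjusted p = 4.58e-07). Benzo[k]fluoranthene lay above DMSO on this probe, whereas a second probe gave means of -0.42 and -2.21, both below DMSO, and a difference of 1.79. TIPARP, an ADP-ribosyltransferase that feeds back on AHR, had ratios of 1.87, 1.90 and 1.95 against 0.46, 0.81 and 0.85, a difference of 1.20 (SE 0.10, adjusted p = 2.65e-05). SERPINB2, a plasminogen activator inhibitor, had ratios of 3.38, 3.19 and 1.56 against 0.32, 0.21 and 0.21. Its benzo[k]fluoranthene array 3 lay far below arrays 1 and 2 yet above all chrysene arrays, and the difference of 2.46 carried an SE of 0.42 (adjusted p = 0.00113). A second SERPINB2 probe gave means of 5.91 and 0.15 and a difference of 5.76, larger than that of CYP1B1.

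CYP1A1, the best known AHR target, was at the top of the range with both compounds. Its log2 ratios were 6.36, 6.26 and 6.07 with benzo[k]fluoranthene and 6.32, 5.51 and 5.59 with chrysene. The Cy5 spot was saturated on all 6 arrays, so each ratio is a lower bound and no difference between the compounds can be read from it. CYP1A2, a liver cytochrome of the same subfamily, was called lower: its ratios were 0.21, 0.13 and 0.27 against 1.90, 1.89 and 1.63, a difference of -1.60 (SE 0.09, adjusted p = 2.4e-06). Its Cy5 spot was above background on 1 of 3 benzo[k]fluoranthene and 2 of 3 chrysene arrays, so that this value rests on a dim probe.

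Other targets were raised by both compounds with no called difference. ALDH3A1, an aldehyde dehydrogenase, stood at 3.01, 3.11 and 3.20 against 3.64, 3.08 and 3.29, a difference of -0.23 (SE 0.13, adjusted p = 0.169), and the groups overlapped. NQO1, a quinone reductase shared with the NRF2 programme, differed by 0.17 (SE 0.08, adjusted p = 0.105), and CYP2S1 by -0.13 (SE 0.07, adjusted p = 0.163). In the Cy5 channel alone both were called higher, with 0.78 for NQO1 and 0.81 for CYP2S1, beside DMSO-channel differences of 0.61 and 0.94. A p that misses the threshold does not show that the compounds act alike on these genes. NEDD9, a scaffold of focal adhesions, was called lower on ratios with a difference of -0.70 (SE 0.06, adjusted p = 2.35e-05), but its Cy5-channel difference was 0.15 and its DMSO-channel difference 0.85. EREG, with a difference of 0.07, and LRAT, with -0.26, were near DMSO with both compounds and their Cy5 spots were not above background on any benzo[k]fluoranthene array. A second EREG probe gave means of 0.76 and 0.03, a difference of 0.73.

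**Figure D2:**
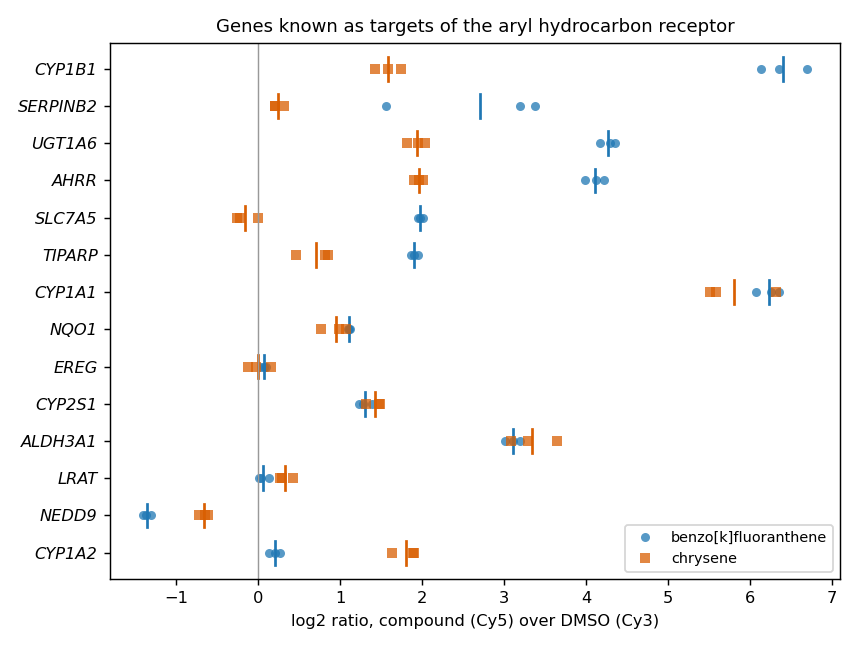
Log2 ratio to DMSO (horizontal) of each of the 14 tested AHR targets on each array, with benzo[k]fluoranthene as blue circles and chrysene as orange squares and each vertical tick the mean of 3 arrays. CYP1B1 shows the widest gap (6.36, 6.14 and 6.70 against 1.43, 1.74 and 1.58), and the CYP1A1 points are lower bounds because all 6 Cy5 spots were saturated.

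Of the 7 tested genes of the receptor and its partners, 1 was called higher and 1 lower (12.4% and 19.2% of all genes). Without chrysene array 1 none was called higher and 2 lower. AHR itself differed by 0.56 (SE 0.07, adjusted p = 0.000176), just under the 1.5-fold threshold, with ratios of 0.94, 0.95 and 0.95 against 0.26, 0.46 and 0.43. ARNT2, the relative of ARNT found mainly in nerve and kidney, was called lower with -1.12 (SE 0.07, adjusted p = 5.86e-06). PTGES3, the p23 cochaperone, was called higher with 0.59, but its 3 other probes gave -0.28, -0.38 and -0.20.

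Among the genes with the highest differences and like DMSO channels (under 2-fold apart), several were raised by benzo[k]fluoranthene alone. RAMP1, which partners the calcitonin receptor-like receptor for the peptide CGRP, lies on chromosome 2 (GRCh38, 237858880 to 237912106) and had ratios of 3.85, 3.89 and 3.91 with benzo[k]fluoranthene and -0.53, -0.52 and -0.36 with chrysene. Benzo[k]fluoranthene arrays were all high and chrysene arrays all below DMSO, and the difference was 4.35 (SE 0.07, 20.4-fold, adjusted p = 4.25e-08). C19orf33 gave 3.29, 3.25 and 3.18 against -0.40, -0.23 and -0.26, a difference of 3.54. KYNU, the kynureninase of tryptophan breakdown, gave 2.29, 2.36 and 2.37 against -0.44, -0.32 and -0.38, a difference of 2.72.

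Others were raised by both compounds but further by benzo[k]fluoranthene. MLPH, which links melanosomes to myosin, had a difference of 3.26 (ratios 4.62, 4.79 and 4.87 against 1.62, 1.39 and 1.49). GPAT3, a glycerol-3-phosphate acyltransferase of triglyceride synthesis, had one of 3.52 (4.87, 4.86 and 4.77 against 1.08, 1.36 and 1.51). IL11, a cytokine of the IL6 family, had one of 3.06 (5.15, 5.04 and 5.01 against 2.00, 1.98 and 2.04). No benzo[k]fluoranthene array overlapped a chrysene array in any of the 3, which the choice of these genes required. ZIC2, a zinc finger developmental factor, TMEM92, BICD1, an adaptor of dynein, HSD17B2, which inactivates oestradiol and testosterone, and EID3 complete the 12. Their differences were 3.61, 3.18, 2.95, 2.64 and 2.60. Of these, BICD1 and HSD17B2 were not called against DMSO with chrysene, at mean ratios of 0.09 and -0.06. The adjusted p of the 12 ran from 4.25e-08 for RAMP1 to 8.2e-07 for EID3.

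At the other end, CEL, the bile salt-stimulated lipase of pancreas and milk, showed the lowest difference among the probes that stood for the tested genes. It lies on chromosome 9 (GRCh38, 133061981 to 133071861), and its ratios were -1.43, -1.01 and -1.31 with benzo[k]fluoranthene and 3.33, 3.20 and 3.18 with chrysene. Chrysene raised it and benzo[k]fluoranthene lowered it on every array, with a difference of -4.49 (SE 0.11, 22.4-fold, adjusted p = 1.38e-07) and a Cy5-channel difference of -4.67. A second CEL probe gave -4.22. HEPACAM, a hepatocyte cell adhesion molecule, followed the same pattern, with -2.56, -2.56 and -2.60 against 1.62, 1.42 and 1.72 and a difference of -4.16 (SE 0.08, adjusted p = 6.64e-08), though its 2 other probes gave -2.54 and -0.24. TP53INP2, a factor of autophagy, and DBNDD1 were also lowered by benzo[k]fluoranthene and raised by chrysene, with differences of -3.42 and -3.37.

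A second kind of low gene lay deep below DMSO with benzo[k]fluoranthene and near DMSO with chrysene. PTPRU, a receptor tyrosine phosphatase, had ratios of -3.82, -3.92 and -4.02 against 0.66, -0.06 and 0.00, a difference of -4.13 (SE 0.18, adjusted p = 8.63e-07). LYPLA2, a lysophospholipase, had -3.95, -3.86 and -3.85 against 0.67, -0.24 and -0.17. LYPLA2 differed by -3.97, and in both genes chrysene array 1 was the highest of its group. The same held for CYB5R3, a cytochrome b5 reductase, TXLNA, MYL7, LMF2 and RFNG, with differences of -3.93, -3.73, -3.51, -3.47 and -3.46, and CYB5R3 was also called below DMSO with chrysene. Other probes of CYB5R3 gave 0.03 and -1.72 and the other probe of TXLNA 0.19, so those values belong to 1 probe each. MYL7, a cardiac myosin light chain, was not above background in Cy5 on any benzo[k]fluoranthene array and was at least 10.2-fold lower there. ATAD2, a bromodomain ATPase, closes the 12 with -3.16, -3.15 and -3.05 against 0.15, 0.30 and 0.24, a difference of -3.35 (SE 0.06), while its other probe gave -0.40.

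**Figure D3:**
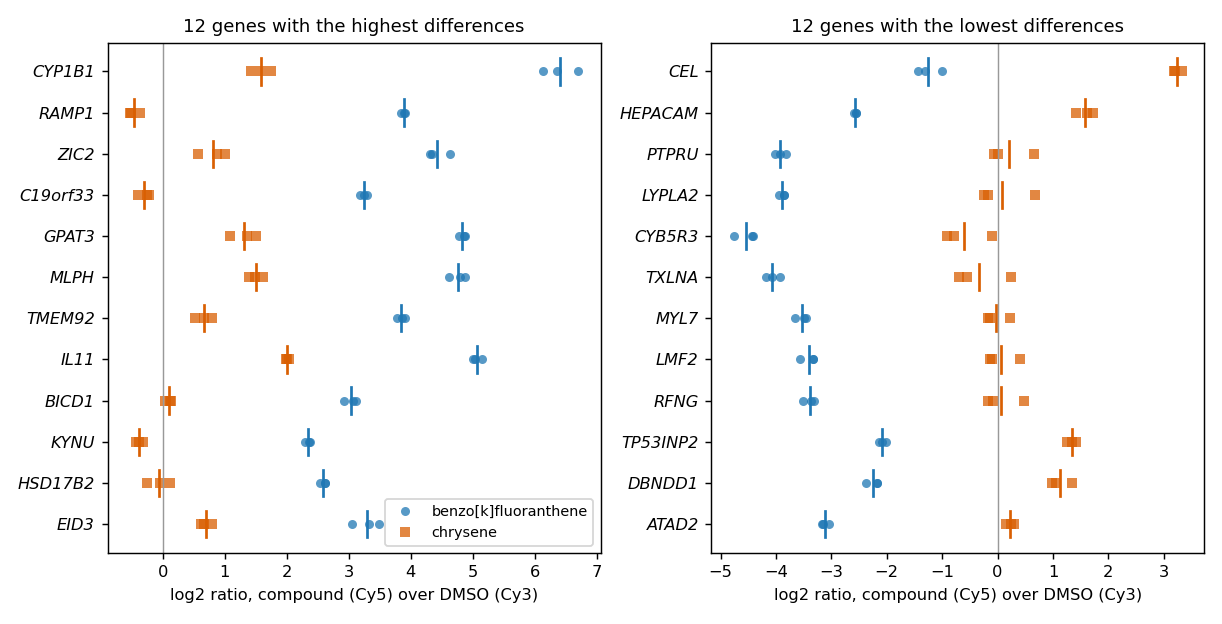
Log2 ratio to DMSO on each array for the 12 genes with the highest (left) and the 12 with the lowest (right) called differences among those with no saturated spot and DMSO channels under 2-fold apart; circles are benzo[k]fluoranthene, squares chrysene, ticks means of 3 arrays. The groups do not overlap in any of the 24 genes (nor in 73.2% of all genes), which the choice of genes required, and chrysene array 1 stands apart from arrays 2 and 3 in PTPRU, LYPLA2, CYB5R3, TXLNA, LMF2 and RFNG.

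Where the DMSO channels lay 2-fold or more apart, part of the ratio difference was a difference between DMSO signals. SLC16A6, a transporter of the monocarboxylate family, had ratios of 5.12, 5.20 and 5.37 against 0.44, 0.56 and 0.49. The difference of 4.74 (SE 0.08, adjusted p = 4.25e-08) was made of a Cy5-channel difference of 1.32 and a DMSO-channel difference of -3.42. AREG, an EGF receptor ligand, went the other way, with a ratio difference of 3.20 and a larger Cy5-channel difference of 4.35. GRB10, an adaptor that restrains insulin receptor signalling, had a ratio difference of 3.14 and a Cy5-channel difference of 1.25. Of the low genes, SERPINA7, the thyroxine-binding globulin, differed by -4.25 (Cy5 channel -2.78), SERPINA3, an acute-phase antiprotease, by -3.91 (Cy5 channel -2.12) and CP, the copper carrier ceruloplasmin, by -3.59 (Cy5 channel -1.95). Those 3 remained lower with benzo[k]fluoranthene in the compound channel. On its other probe SERPINA3 differed by -4.59 on ratios, below the -4.49 of CEL.

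Among the 54 genes raised by benzo[k]fluoranthene and lowered by chrysene, HAMP, the iron hormone hepcidin, had ratios of 1.66, 1.38 and 1.45 against -1.33, -1.21 and -1.29, a difference of 2.77 (Cy5 channel 1.69). RUNX1, a haematopoietic transcription factor, differed by 2.49 (Cy5 channel 2.70) on 1 probe and by 0.03 on its other probe, TBC1D19 by 2.47 (Cy5 channel 3.26) and PITPNC1, a phosphatidylinositol transfer protein, by 2.25 (Cy5 channel 1.82). On the probes used, these 4 kept their direction in the compound channel. GRB10, given above, belongs to the same set. STC2, a secreted glycoprotein, differed by 2.75 on ratios but by 0.39 in Cy5, with a DMSO-channel difference of -2.35.

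The p53 targets were lower with benzo[k]fluoranthene than with chrysene. Of 30 tested members, 21 were called lower (19.2% of all genes were) and 1 higher (12.4% of all genes), and the median difference was -1.12 against -0.05 over all genes. Against DMSO, chrysene raised 28 of the 30 by the call rule (13.1% of all genes). Benzo[k]fluoranthene raised 17 (17.7% of all genes) and lowered 3 (22.9%). The median Cy5-channel difference was -0.63 and the median DMSO-channel difference 0.55. In Cy5 alone 15 members were called lower and 1 higher (20.4% and 18.6% of all genes).

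CDKN1A, the p21 inhibitor of cyclin-dependent kinases, lies on chromosome 6 (GRCh38, 36676463 to 36687332). Its ratios were -0.29, -0.31 and -0.38 with benzo[k]fluoranthene and 3.39, 2.61 and 2.74 with chrysene, a difference of -3.24 (SE 0.18, 9.47-fold, adjusted p = 2.83e-06). Chrysene raised this probe's signal over DMSO on every array and benzo[k]fluoranthene on none. The Cy5-channel difference was -1.82 and the DMSO-channel difference 1.42. A second probe, saturated on some arrays, was raised by both compounds, to means of 2.46 and 4.32, and gave a difference of -1.86, so the direction held while the ratio with benzo[k]fluoranthene depended on the probe.

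SPATA18, a factor of mitochondrial quality control, had ratios of 0.62, 0.55 and 0.58 against 2.66, 2.76 and 2.79, a difference of -2.16 (SE 0.06, adjusted p = 1.89e-07). SESN1, a sestrin that restrains mTORC1, stood at -0.24, -0.23 and -0.29 against 1.71, 1.94 and 1.92, a difference of -2.11. BTG2, an antiproliferative factor, stood at 1.02, 0.88 and 0.99 against 2.93, 2.92 and 3.02, a difference of -1.99. The BTG2 Cy5-channel difference was -0.78 and the DMSO-channel difference 1.21. Chrysene arrays were above benzo[k]fluoranthene arrays without overlap in all 3 genes, and 73.2% of all genes had groups that did not overlap. TP53I3, a quinone oxidoreductase, differed by -2.32 with its Cy5 spot saturated on 2 of 3 chrysene arrays. MDM2, the ligase that degrades p53, was raised by both compounds and differed by -0.66 (SE 0.07, adjusted p = 0.000117), but by 0.06 as the mean of its probes and by 0.78 on the probe taken when signal above background was required on all 6 arrays, so its direction depended on the probe. GLS2, the liver glutaminase and also a known p53 target, gave 0.08, 0.16 and 0.04 against 3.28, 3.19 and 3.23, a difference of -3.14 (SE 0.06, adjusted p = 6.45e-08). In Cy5 GLS2 differed by -2.06, beside a DMSO-channel difference of 1.07. The exception was GDF15, a stress cytokine, whose Cy5 spot was saturated on all 6 arrays, so that its call as higher rests on ratios that are lower bounds, with a Cy5-channel difference of 0.05.

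**Figure D4:**
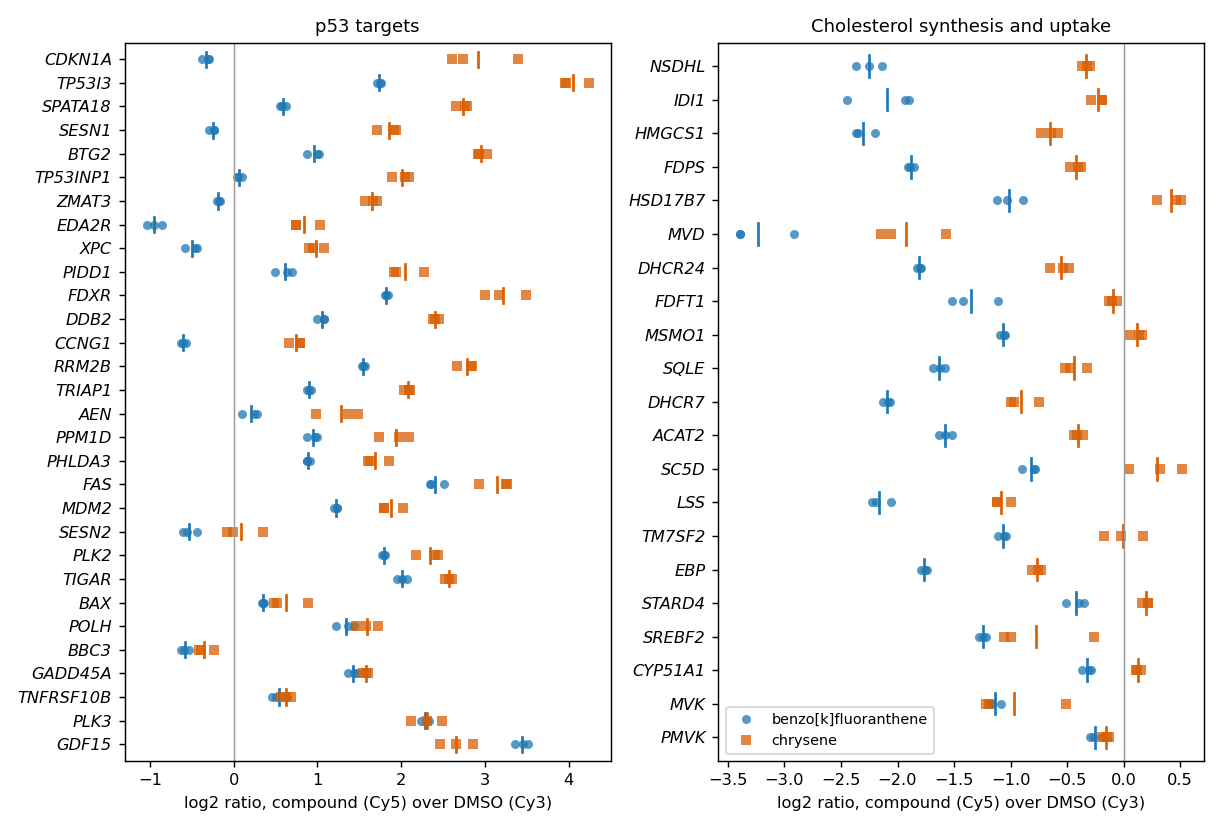
Log2 ratio to DMSO on each array for the 30 tested p53 targets (left) and genes of cholesterol synthesis and uptake (right, some members not shown), ordered by the difference; blue circles are benzo[k]fluoranthene, orange squares chrysene, ticks means of 3 arrays. Most p53 targets lie above 0 with chrysene and nearer 0 with benzo[k]fluoranthene, and most cholesterol genes lie farther below 0 with benzo[k]fluoranthene.

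Genes of cell division were below DMSO with both compounds, and their difference between compounds depended on the scaling. Benzo[k]fluoranthene lowered 30 of 30 tested genes of G2 and mitosis against DMSO (22.9% of all genes) and chrysene 28 (13.8% of all genes). Between the compounds, 17 were called lower with benzo[k]fluoranthene (19.2% of all genes) and none higher. The median difference was -0.70 and the Cy5-channel median -0.40. After quantile scaling, by contrast, 9 were called higher and 2 lower with a median of 0.25, beside 2239 and 2168 of all 15150 genes. MKI67, the proliferation antigen Ki-67, had ratios of -3.47, -3.48 and -3.65 against -1.86, -1.83 and -1.93, a difference of -1.66 (SE 0.07, adjusted p = 8e-07); it was not above background in Cy5 on any benzo[k]fluoranthene array and was at least 2.37-fold lower there. KIF20A, a mitotic kinesin, differed by -1.42, TOP2A, the topoisomerase of dividing cells, by -1.41 and CCNB1, cyclin B1, by -1.31. In Cy5 CCNB1 differed by only -0.21, beside a DMSO-channel difference of 1.1. AURKB, the kinase of the chromosomal passenger complex, differed by -1.18 but by 0.26 after quantile scaling. In bulk RNA fewer cells in division and less RNA per cell cannot be told apart.

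DNA replication genes were lower on ratios but not in the compound channel. Of 33 tested members, 20 were called lower (19.2% of all genes) and none higher (12.4%), with a median difference of -0.72. The median DMSO-channel difference was 0.92 and the median Cy5-channel difference 0.22. In Cy5 alone 8 members were called higher and 4 lower (18.6% and 20.4% of all genes). Quantile scaling gave a median of -0.19 with 3 higher and 8 lower, beside 2239 and 2168 of all 15150 genes. PCNA, the sliding clamp and also a p53 target, showed the widest gap, with ratios of -0.03, 0.12 and 0.09 against 2.28, 2.48 and 2.39, a difference of -2.32 (SE 0.07, adjusted p = 2.79e-07) a Cy5-channel difference of -0.78 and a saturated spot on 1 chrysene array. TK1, thymidine kinase, differed by -1.57, CDT1, a licensing factor, by -1.33 (-0.23 on its other probe), FEN1, the flap endonuclease, by -1.33 and MCM4, a helicase subunit, by -1.29. Their Cy5-channel differences were smaller, at -0.59, -0.56, -0.22 and -0.36.

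DNA repair genes showed the same split. Of 20 tested members, 7 were called lower (19.2% of all genes) and 1 higher (12.4%) on ratios. In Cy5 alone 2 were called lower and 5 higher (20.4% and 18.6% of all genes). FANCI, of the Fanconi anaemia pathway, differed by -0.90 on ratios and 0.07 in Cy5, and RAD54L, a motor of homologous recombination, by -0.77 and 0.15. OGG1, the glycosylase of oxidised guanine, was called higher with 0.65, its other probes giving 1.48 and -0.06. ATM, the kinase of double-strand break signalling, was called lower with -0.68, but its 2 other probes gave 0.12 and 0.25.

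Replication-dependent histones rose with benzo[k]fluoranthene relative to chrysene. Of 20 tested members, 13 were called higher (12.4% of all genes) and 1 lower, with a median difference of 0.91, a Cy5-channel median of 1.24 and a median of 0.71 after quantile scaling (12 higher, none lower). H1-3, a linker histone, had ratios of 3.73, 3.80 and 4.01 against 1.57, 1.64 and 1.83, a difference of 2.17 (SE 0.10, adjusted p = 1.01e-06). H1-4 stood at 3.36, 3.47 and 3.36 against 1.29, 1.53 and 1.57, a difference of 1.93, and H1-2 and H2AC18 differed by 1.89 and 1.73. Both compounds raised these 4 over DMSO, benzo[k]fluoranthene further on every array. H4C3 was below DMSO with both compounds and differed by 1.69, with a saturated spot in its DMSO channel. Histone genes are near-identical within a family, so a probe may take up signal of relatives.

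The 120 bases before the H1-3 and H1-4 starts are shown because both genes were among the histones with the largest differences and carry a CCAAT and a TATA box (searched as CCAAT and TATAAA, both strands, in capitals). The sequences are RefSeq, GRCh38.p14, 5′ to 3′ along the gene: H1-3 at chr6:26234988-26235107 on the minus strand and H1-4 at chr6:26156209-26156328 on the plus strand.
H1-3: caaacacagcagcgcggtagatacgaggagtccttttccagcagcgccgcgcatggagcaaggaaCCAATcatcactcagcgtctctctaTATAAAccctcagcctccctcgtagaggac
H1-4: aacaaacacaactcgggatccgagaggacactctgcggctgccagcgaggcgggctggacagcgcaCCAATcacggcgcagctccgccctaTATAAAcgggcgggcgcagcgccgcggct
In the full 250 bases, TATAAA occurred in 12 of 19 histone promoters and 7.47% of all 12105, and CCAAT in 17 of 19 and 34.9%. The CCAAT box begins 55 and 54 bases and the TATA box 30 and 29 bases before the starts of H1-3 and H1-4.

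Genes of cholesterol synthesis and uptake were lower with benzo[k]fluoranthene. Of 24 tested members, 19 were called lower (19.2% of all genes) and none higher, with a median difference of -1.18 and a Cy5-channel median of -0.86, and quantile scaling kept 13 lower and none higher. Benzo[k]fluoranthene lay below DMSO in the lead genes, and chrysene did so less. NSDHL, a sterol demethylation enzyme, had -2.37, -2.25 and -2.14 against -0.30, -0.37 and -0.32, a difference of -1.92 (SE 0.07, adjusted p = 4.58e-07).

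IDI1, isopentenyl diphosphate isomerase, differed by -1.87 and HMGCS1, which makes HMG-CoA, by -1.66 (SE 0.07, adjusted p = 8.52e-07). HMGCS1 ratios were -2.37, -2.35 and -2.20 against -0.73, -0.58 and -0.64, with all arrays below DMSO. Its groups did not overlap, nor did those of 73.2% of all genes. INSIG1 was not tested.

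The 200 bases before the HMGCS1 and NSDHL starts are shown because CCAAT boxes, in capitals on either strand (ATTGG is the reverse), were found in 14 of the 17 cholesterol gene promoters that RefSeq gave, against 34.9% of all. HMGCS1 is at chr5:43313413-43313612 on the minus strand and NSDHL at chrX:152830863-152831062 on the plus strand (GRCh38.p14, 5′ to 3′ along the gene).
HMGCS1: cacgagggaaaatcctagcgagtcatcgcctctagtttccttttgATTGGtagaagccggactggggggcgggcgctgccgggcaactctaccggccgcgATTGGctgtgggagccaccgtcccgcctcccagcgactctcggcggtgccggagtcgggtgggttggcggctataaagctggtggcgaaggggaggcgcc
NSDHL: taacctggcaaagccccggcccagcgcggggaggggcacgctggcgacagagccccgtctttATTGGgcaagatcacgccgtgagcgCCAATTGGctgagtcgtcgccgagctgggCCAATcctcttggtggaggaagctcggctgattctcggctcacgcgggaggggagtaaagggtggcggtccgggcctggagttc
A sterol response element, searched as TCACNCCAC, was found in 1 of those 17 promoters (SREBF2) and in 0.851% of all, and its absence from the other windows says only that these letters are not there.

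Fatty acid and triglyceride genes were mixed around a lower median. Of 18 tested members, 10 were called lower (19.2% of all genes) and 2 higher (12.4%), with a median difference of -0.71, and 5 lower and 3 higher after quantile scaling. FASN, the fatty acid synthase, had ratios of -4.55, -4.44 and -4.32 against -1.06, -2.06 and -2.15, a difference of -2.68 (SE 0.26, adjusted p = 5.11e-05), with chrysene array 1 again above the others. DGAT2, which completes triglycerides, differed by -1.87, SCD, the stearoyl desaturase, by -1.79 (-0.33 and -1.0 on its other probes) and FADS2, a desaturase of polyunsaturated fats, by -1.35. GPAT3 went up, as given above. In fatty acid oxidation 2 of 17 tested members were called higher and 6 lower (12.4% and 19.2% of all genes). Their median was -0.04 (0.22 after median centring). CPT1A, the carnitine gate of the mitochondrion, differed by 1.78 (SE 0.08, adjusted p = 1.2e-06), with 0.68 on another probe, and ANGPTL4, an inhibitor of lipoprotein lipase, by 1.06, while EHHADH and HADHA differed by -0.89 and -0.91. In Cy5 ANGPTL4 differed by 3.01, beside a DMSO-channel difference of 1.95. CPT2 was called lower with -1.03 on ratios but had a Cy5-channel difference of 0.55.

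Secreted hepatocyte proteins were lower with benzo[k]fluoranthene almost throughout. Of 25 tested members, 20 were called lower (19.2% of all genes) and none higher (12.4%), with a median difference of -1.14, a Cy5-channel median of -1.09 and 13 lower and 1 higher after quantile scaling. ALB, albumin, had ratios of -3.18, -3.17 and -3.01 against -0.43, -0.34 and -0.48, a difference of -2.70 (SE 0.07, adjusted p = 1.71e-07). Other ALB probes gave smaller differences, of -1.63 and, with a saturated spot, -1.29. TTR, transthyretin, had -2.52, -2.50 and -2.41 against 0.67, 0.79 and 0.84, a difference of -3.24 (SE 0.07, adjusted p = 7.9e-08). Benzo[k]fluoranthene put both far below DMSO on every array, while chrysene raised TTR and was not called for ALB.

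AFP, alpha-fetoprotein, differed by -2.43 and PLG, plasminogen, by -2.24, with PLG ratios of -1.01, -1.81 and -1.93 on chrysene arrays 1 to 3. Other PLG probes gave -1.25, -1.39 and -1.69. A saturated spot lay in 9 of the 25 members on at least 1 array. All 6 hepatocyte line markers (ALB, AFP, APOA1, TTR, SERPINA1 and GPC3) were called lower (19.2% of all genes), with a median difference of -2.04. Some markers of other cells were detected. PTPRC, CD3E, PECAM1, VWF and KDR were above background in 4 or 5 of 6 DMSO channels, and CD14 in none. On the chrysene arrays PECAM1 was above background in Cy5 on 1 of 3, and CD14, PTPRC, CD3E, VWF and KDR on all 3. On the benzo[k]fluoranthene arrays CD14 was above it on none, PTPRC and KDR on 1, CD3E on 2, and PECAM1 and VWF on 3. COL1A1 and COL3A1 were not tested. Of the 6 tested, 1 was called higher and 3 lower (12.4% and 19.2% of all genes). Their differences ran from -1.65 (CD14, at least 6.45-fold lower in Cy5) to 1.11 (PECAM1). The median ratio to DMSO over these markers was -0.06 with benzo[k]fluoranthene and 0.54 with chrysene, and their part in the results was not tested.

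Hepatocyte transcription factors moved both ways, with 4 of 16 tested members called higher and 4 lower (12.4% and 19.2% of all genes) and a median of 0.02. Cy5 alone gave 1 higher and 7 lower (18.6% and 20.4% of all genes), and quantile scaling 6 higher and 1 lower. NR0B2, the bile acid-induced repressor SHP, differed by -1.53 (ratios -0.05, -0.02 and -0.02 against 1.61, 1.47 and 1.43) and NR1H4, the bile acid receptor FXR, by -1.30, though by 0.04 after quantile scaling. HNF4A, a master factor of the hepatocyte, was called lower with -1.27, and was at least 4.46-fold lower in Cy5, but its other probes gave -0.68 and 0.63. PROX1 was called higher with 0.92. ONECUT2 was called higher with 1.60 on ratios and had a Cy5-channel difference of -0.10.

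NRF2 targets, the antioxidant genes, were higher or not called. Of 24 tested members, 9 were called higher (12.4% of all genes) and none lower, with a median difference of 0.50. Cy5 alone gave 4 higher and 1 lower with a median of 0.34, beside 18.6% and 20.4% of all genes. SLC7A11, the cystine importer, had ratios of 2.04, 2.00 and 2.06 against 0.29, 0.31 and 0.37, a difference of 1.71 (SE 0.05, adjusted p = 2.82e-07). GCLM, the modifier subunit of glutathione's first enzyme, had 3.18, 3.22 and 3.25 against 1.65, 1.74 and 1.72, a difference of 1.51 (SE 0.06, adjusted p = 4.95e-07). Both compounds raised GCLM, and only benzo[k]fluoranthene raised SLC7A11 by the call rule. AKR1B10, an aldo-keto reductase, differed by 1.15, SRXN1, sulfiredoxin, by 1.08 and FTH1, ferritin heavy chain, by 1.01, with other probes between -0.16, on a saturated spot, and 1.05. In Cy5 AKR1B10 and FTH1 differed by 0.58 and 0.51, and neither was called there.

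GCLM's upstream bases are shown for its antioxidant response element, searched as TGACNNNGC on both strands and in capitals here as the reverse, from RefSeq at chr1:93909431-93909630 on the minus strand (GRCh38.p14).
GCLM: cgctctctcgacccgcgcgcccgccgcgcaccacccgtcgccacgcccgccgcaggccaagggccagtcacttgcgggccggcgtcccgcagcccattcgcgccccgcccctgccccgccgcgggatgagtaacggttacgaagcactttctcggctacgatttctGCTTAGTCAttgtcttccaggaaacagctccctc
The element begins 34 bases before the start. It was found in 4 of 16 NRF2 target promoters and in 11.9% of all.

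Among stress genes, metallothioneins were limited by saturation, with 6 of 10 saturated on at least 1 array. Of the 10, 1 was called higher (12.4% of all genes), namely MT1B with 0.92, saturated on all 3 benzo[k]fluoranthene arrays. After median centring 6 were called higher, with a median of 0.71, beside 2969 of all 15150 genes. Of 12 tested heat shock genes, 5 were called lower (19.2% of all genes) and none higher, with a median of -0.52 that was 0.11 in Cy5 alone. HSPA4L differed by -1.35 and DNAJA1 by -0.88. In Cy5 these 2 differed by -0.56 and -0.26, beside DMSO-channel differences of 0.79 and 0.62. CRYAB differed by -0.65, and HSPA1A by -0.59 with a Cy5-channel difference of 0.21 and -1.63 and -2.71 on its other probes. HSPD1 differed by -1.73, but its brighter saturated probe gave 0.29. In the ATF4 and unfolded protein group of 21, 4 were called higher and 7 lower (12.4% and 19.2% of all genes), and 5 higher and 3 lower after quantile scaling. HYOU1, a chaperone of the endoplasmic reticulum, had ratios of -2.77, -2.64 and -2.63 against -0.17, -0.39 and -0.48, a difference of -2.33, and HSPA5, the chaperone BiP, differed by -1.98 (-0.82 on its other probe). In Cy5 HSPA5 differed by -0.78, beside a DMSO-channel difference of 1.2. ATF3, a stress-induced repressor, was called higher with 1.57, but its Cy5-channel difference was -0.11 and its other probe gave -0.67. TRIB3 was called higher with 1.55 while its other probe gave -0.76.

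Immediate early and ERK feedback genes were mostly higher. Of 17 tested members, 10 were called higher (12.4% of all genes) and 2 lower (19.2%), with a median difference of 0.61. Cy5 alone gave 5 higher and 3 lower, beside 18.6% and 20.4% of all genes. EGR1, a zinc finger factor induced by growth signals, had ratios of 3.62, 3.68 and 3.70 against 1.44, 1.47 and 1.45, a difference of 2.21 (SE 0.05, adjusted p = 1.45e-07), of which 0.55 lay in Cy5 and -1.66 in the DMSO channel. SPRED1, a brake on RAS, differed by 1.68 (Cy5 channel 1.57, other probe 0.40), SPRY4 by 1.47 (Cy5 channel 0.24) and DUSP4, a MAP kinase phosphatase, by 1.38 (Cy5 channel 1.08). ETV4, an ERK-driven factor, was called lower with -1.37 (Cy5 channel -1.09).

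Cytokine and NF-kB genes split 3 higher and 4 lower of 14 tested (12.4% and 19.2% of all genes) with a median of -0.21. Cy5 alone gave 4 higher and 1 lower (18.6% and 20.4% of all genes) with a median of 0.20. IL18 differed by 1.34, CCL20, a chemokine, by -1.40 and IL32 by -0.79 with a saturated spot on 2 arrays of each compound. In Cy5 these 3 differed by 2.15, -0.25 and -0.06, beside DMSO-channel differences of 0.80, 1.15 and 0.73. LIF was called higher with 0.92, its other probe giving -0.10. Of 19 interferon-response genes 1 was called higher and 7 lower (12.4% and 19.2% of all genes). In Cy5 alone 7 were higher and 4 lower (18.6% and 20.4% of all genes). OAS2, a sensor of double-stranded RNA, had ratios of 2.75, 2.52 and 2.65 against 0.41, 0.13 and 0.38. Its Cy5 spot was not above background on any chrysene array, and it was at least 5.94-fold higher with benzo[k]fluoranthene. IFI27, an interferon-induced protein, differed by -2.14, with -0.48 on its other probe. IRF7 differed by -1.79 with its other probe at 0.05, and IFIT1 by -1.12 with a Cy5-channel difference of 1.03.

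Of 18 matrix and cytoskeleton genes 5 were called higher and 6 lower (12.4% and 19.2% of all genes). MMP1, the interstitial collagenase, had ratios of 2.36, 2.48 and 2.31 against 0.01, -0.09 and -0.03, a difference of 2.42 (SE 0.07, adjusted p = 1.79e-07). TAGLN, an actin-binding protein, differed by -1.08. KRT8, keratin 8, was called lower with -2.72, but its other probes gave -0.01 and 0.50.

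Among drug and bile acid enzymes outside the AHR targets, 2 of 12 tested CYP2 and CYP3 cytochromes were called lower and none higher. The shares of all genes were 19.2% and 12.4%. The 2 were CYP2U1, with -1.31 (Cy5 channel -0.53, DMSO channel 0.77), and CYP2D6, with -0.82. Cy5 alone gave 2 higher and 6 lower, beside 18.6% and 20.4% of all genes, and 3 of the 15 listed were not tested. Of 22 conjugating enzymes 2 were called higher and 9 lower (12.4% and 19.2% of all genes). UGT2B4, which conjugates bile acids, had ratios of -2.78, -2.73 and -2.75 against 0.19, 0.25 and 0.26, a difference of -2.99 (SE 0.05, adjusted p = 6.1e-08, Cy5 channel -1.31). A second UGT2B4 probe gave means of -3.71 and -1.84, both below DMSO, and a difference of -1.87. UGT2B10, UGT2B7 and GSTK1 differed by -1.94, -1.88 and -1.52, and MGST1, a microsomal glutathione transferase, by 1.32. The UGT2B genes are close relatives whose probes may share signal.

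Of 15 bile acid genes 1 was called higher and 7 lower (12.4% and 19.2% of all genes), with a median of -0.54; quantile scaling gave 2 higher and 3 lower with a median of -0.13. CYP27A1, a sterol hydroxylase of the alternative pathway, had -3.50, -3.46 and -3.37 against -0.95, -1.16 and -1.36, a difference of -2.29. FGFR4, the hepatocyte receptor for FGF19, differed by -2.25, ABCB4, a phospholipid exporter, by -1.71 and SLC27A5 by 1.09. AKR1D1 differed by -0.84, but by 0.44 after quantile scaling. CYP7A1, the rate-limiting enzyme of the classical pathway, was above background in Cy5 on 1 of 6 arrays.

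Lysosomal genes were lower. Of 19 tested members, 14 were called lower (19.2% of all genes) and none higher (12.4%). The median difference was -0.92, the Cy5-channel median -0.31 and the DMSO-channel median 0.48. In Cy5 alone 8 were lower and 2 higher, beside 20.4% and 18.6% of all genes. CTSD, cathepsin D, had ratios of -4.77, -4.67 and -4.52 against -0.99, -1.74 and -1.92, a difference of -3.10 (SE 0.22, adjusted p = 9.07e-06). PSAP, the saposin precursor, differed by -1.61, CTSB, cathepsin B, by -1.59, CTSH by -1.54 and LIPA, lysosomal acid lipase, by -1.48. The Cy5-channel difference of CTSB was -0.34.

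Energy and amino acid metabolism held single large differences. Of 23 glycolysis and gluconeogenesis genes 5 were called higher and 4 lower (12.4% and 19.2% of all genes). PFKL, the liver phosphofructokinase, differed by -2.92, SLC2A3 by -1.35 and PCK2 by -0.96, the last by 0.20 after quantile scaling. SLC2A1, the glucose transporter GLUT1, differed by 1.12. SLC2A2, the liver transporter GLUT2, was called higher with 1.76 on ratios, yet its Cy5-channel difference was -1.60 and its DMSO-channel difference -3.36. Of 25 respiratory chain subunits 1 was called higher and 5 lower (12.4% and 19.2% of all genes). After median centring 7 were higher and 1 lower with a median of 0.27, beside 2969 and 2510 of all 15150 genes. The lower genes were led by SDHC with -2.05, then UQCRC2 with -1.02 and SDHA with -0.82; NDUFB5 differed by -0.64 and NDUFV1 by 0.69.

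Of 14 urea cycle and amino acid genes 2 were called higher and 6 lower (12.4% and 19.2% of all genes). ASS1, argininosuccinate synthase, differed by -1.90 and SDS, serine dehydratase, by -1.44. NAGS, whose product switches on the urea cycle, and TAT, tyrosine aminotransferase, were called higher with 2.44 and 1.39 on ratios, but their Cy5-channel differences were -0.63 and -0.01, and another TAT probe gave 0.20.

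In the IGF axis 3 of 13 were called higher and 6 lower (12.4% and 19.2% of all genes). IGFBP1, an IGF-binding protein, differed by 2.47 with its Cy5 spot saturated on all 3 benzo[k]fluoranthene arrays and a Cy5-channel difference of 0.53. IGF2R, the receptor that clears IGF2, had -2.63, -2.64 and -2.51 against -0.31, -0.53 and -0.61, a difference of -2.11. IGF2 itself differed by -1.87 (Cy5 channel -0.32), IGFALS by -1.82 and IGFBP3 by -1.23 (-2.90 on its other probe).

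**Figure D5:**
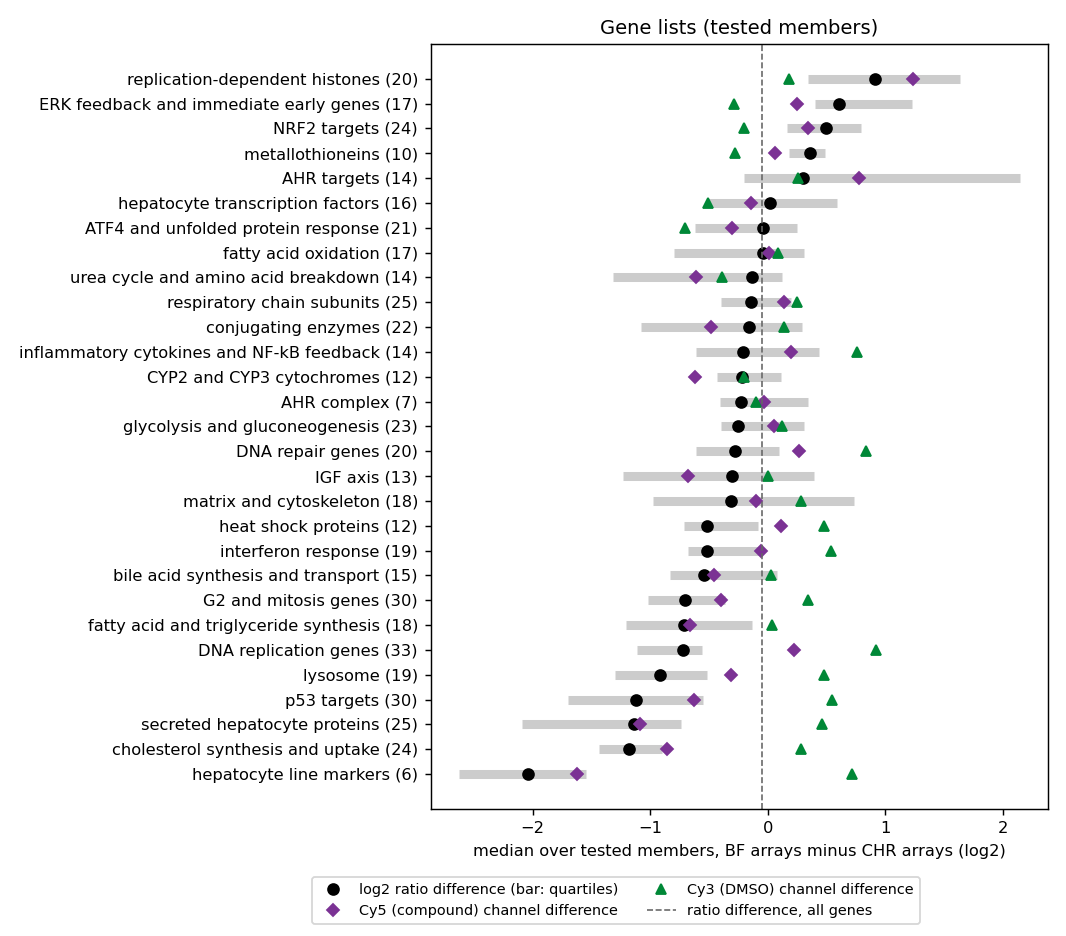
For each gene list except the markers of other cells (number of tested members in brackets), the median over members of the ratio difference (black circle, grey bar from the lower to the upper quartile), of the Cy5-channel difference (purple diamond) and of the DMSO-channel difference (green triangle), benzo[k]fluoranthene arrays minus chrysene arrays on the log2 scale; the dashed line is the all-gene median of -0.05. Cholesterol genes (-1.18), secreted proteins (-1.14) and p53 targets (-1.12) lie lowest of the larger lists and histones (0.91) highest, and for DNA replication genes the Cy5 median (0.22) and the ratio median (-0.72) lie on opposite sides of 0.

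The 30 lists held 556 genes, of which 533 were tested; of the 23 not tested, 4 had no named probe and the rest had none above background on enough arrays. Genes measured by more than 1 probe gave a check within the arrays. Of 752 genes called at least 2-fold with another unsaturated probe, 598 had all their other probes on the same side of 0, and 166 of the 950 other probes had the opposite sign. The other probes' differences were at the median 0.568 of that of the probe used.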

How the data were processed

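The Agilent 44K arrays were deposited as scanner output. Per the file headers they hold foreground and background intensity in the red (Cy5) and green (Cy3) channels, the percent of saturated pixels and a spot flag score; the authors' deposited log2 ratios were used as an alternative only, and their chrysene array 2 column did not match that array (r = -0.005). Scanner settings and the build are not given in the sources used here.

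Spots were corrected with normexp (offset 50) and loess-normalised within each array, with no scaling between arrays, in limma 3.58.1 (R 4.3.3), and the 6 arrays were fitted as 2 groups. Probes were kept when their Cy5 or Cy3 median exceeded the background median by 2 SD on 2 or more of the 3 arrays of either compound; a gene took its brightest probe without a saturated spot on the 6 arrays, else its brightest. Of 41000 probes 26427 were named through RefSeq (22633 by accession, 2488 by symbol, 1306 by older symbol). Channel differences used loess followed by Aquantile. A bound on a fold sets the bright group's mean against the lowest signal above background. The script was tested on simulated data with independent noise: 98% of 2-fold and 99% of 4-fold changes among 200 genes were recovered, with 2 unchanged genes called. No outlying array or gap between DMSO channels was simulated, so these values do not measure the accuracy of the calls reported. Precision is limited by 3 arrays a compound.

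Genes named by size had no saturated spot, no overlap between the groups and signal above background on all 6 arrays: the 12 highest and 12 lowest with DMSO under 2-fold apart, 3 and 3 with it farther apart, and up to 6 a direction that moved oppositely against DMSO. Also named were all AHR targets and up to 5 called members of each other list with the largest difference, and genes an earlier report on these data gave; other genes were picked after their values were seen. The comparison and lists were chosen with earlier results of these data known.

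A few list members are counted but not reported by name here. Figures were drawn with matplotlib.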

Additional observations from a re-analysis of the deposited data

How the results depend on the processing

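Under background subtraction or none, other filters, probe averaging, array weights, larger array sets and the authors' values, the counts of called genes stayed within 1.5 times those reported. Median centring gave 2969 higher genes, 15 higher NRF2 targets and 9 lower lysosomal genes. Quantile scaling gave 2 lower genes of G2 and mitosis, 8 of DNA replication, 5 of fatty acid synthesis and 13 secreted proteins. Cy5 channels alone gave 11 lower genes of G2 and mitosis, 4 of replication and 8 of the lysosome, and 4 higher NRF2 targets and 5 ERK genes. A 2-fold threshold gave 655 higher and 1413 lower genes, 3128 for benzo[k]fluoranthene and 1537 for chrysene against DMSO, 2913 in Cy5 and 1526 in the DMSO channel, with 9 lower genes of G2 and mitosis, 12 of replication and 9 of the lysosome, and 7 higher histones, 5 NRF2 targets and 5 ERK genes. The adjusted p alone gave 4518 higher and 5706 lower genes, 12045 and 11262 against DMSO, 9681 in Cy5, 7345 in the DMSO channel and 14 higher NRF2 targets.

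Leaving out 1 array at a time gave 1837 to 1947 higher and 2832 to 2981 lower genes, 6109 to 6207 and 3949 to 4414 against DMSO, 5683 to 6004 in Cy5 and 3629 to 4613 in the DMSO channel. It gave 6 to 7 AHR targets, 13 to 14 histones, 9 to 12 NRF2 targets and 8 to 10 ERK genes higher. It gave 20 to 21 p53 targets, 16 to 19 genes of G2 and mitosis, 19 to 22 of replication, 18 to 20 of cholesterol, 9 to 10 of fatty acid synthesis, 20 to 21 secreted proteins and 13 to 14 lysosomal genes lower. With the array number as a replicate block 1882 genes were higher and 2914 lower; same-numbered arrays correlated in their deviations at -0.155, -0.097 and -0.018, so the numbers do not pair the arrays.

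Of 3888 values of 170 named genes, 3736 kept direction and call, 110 lost the call, 15 gained it and 27 changed sign. Quantile scaling gave AKR1D1 0.44, AURKB 0.26, CYP1A1 -0.42, NQO1 -0.05, NR1H4 0.04 and PCK2 0.20. Cy5 alone gave ALDH3A1 0.13, ATF3 -0.11, CPT2 0.55, CYP2S1 0.81, EREG -0.12, FANCI 0.07, HSPA1A 0.21, IFIT1 1.03, NAGS -0.63, NEDD9 0.15, ONECUT2 -0.10, RAD54L 0.15, SLC2A2 -1.60 and TAT -0.01. Plain subtraction gave ALDH3A1 0.06. The authors' values gave CYP1A1 -0.21 and CYP2S1 0.06, without their chrysene array 2. Averaged probes gave PTGES3 -0.07 and MDM2 0.06, signal on all 6 arrays MDM2 0.78, and the brightest probe, chosen as an alternative after seeing the data, HSPD1 0.29. The cause was not tested. Saturation and dim spots limit CYP1A1, GDF15, most metallothioneins, CYP1A2 and MKI67.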
